A study of Mus musculus with 32 samples.

Results

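The effect of auranofin that is shared by 4 tissues was measured in mice on a high-fat diet. Wild-type C57/Bl6j mice ate a diet with 60% fat for 12 weeks and then received either auranofin, dosed at 1 mg/kg on 3 occasions weekly over 4 weeks, or vehicle. All animals therefore carried the same genotype and the same diet, and drug was the only labelled difference between the groups. RNA sequencing gave 16 libraries of auranofin-treated mice and 16 of vehicle-treated mice, 4 and 4 in each of liver, brown fat (BAT), the subcutaneous inguinal white depot (iWAT) and the visceral epididymal white depot (eWAT). All 32 libraries of the series entered 1 model with the tissue as a block and a single auranofin minus vehicle difference, called the common change here. It was fitted to log2(FPKM + 1), where FPKM is fragments per kilobase of gene length, scaled to library size. On this scale the change of a lowly expressed gene is understated. Of 54532 genes in the table, 10638 (19.5%) had a mean of at least 0.5 FPKM in each of the 4 tissues and were tested, 9789 of them protein coding. The other genes were too low in at least 1 tissue, so a gene used by fat but not by liver lies outside this comparison.

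Auranofin is a gold compound, used against rheumatoid arthritis, that binds the selenocysteine of thioredoxin reductases and blocks the transfer of electrons from NADPH to thioredoxin. Cells whose thioredoxin system is blocked typically turn on NRF2, a transcription factor that drives Hmox1, Nqo1, Srxn1 and Txnrd1 itself. Gold and other thiol-reactive agents also release HSF1, which drives chaperone genes, and MTF1, which drives the metallothioneins Mt1 and Mt2.

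The libraries held 13606756 to 19205640 reads in genes each, on 18970 to 22594 genes. Defining markers sat in the labelled tissues. Alb, the albumin gene of hepatocytes, lay between 39600 and 57500 FPKM in liver and at most at 286 FPKM elsewhere, Adipoq, an adipocyte hormone gene, reached at most 0.132 FPKM in liver, and Ucp1, the uncoupling protein of brown adipocytes, lay between 1700 and 4150 FPKM in BAT and at most at 0.441 FPKM elsewhere. Several libraries stood apart within their group. The summed level of 20 adipocyte markers was 27960 FPKM in auranofin library 2 of iWAT and 17430 to 18680 FPKM in the other auranofin libraries of that depot. In eWAT that sum was lowest, at 6544 FPKM, in vehicle library 1, and the share of reads from the mitochondrial genome was highest, at 8.11%, in vehicle library 2. The summed level of 20 skeletal muscle markers was 3530 and 1475 FPKM in auranofin libraries 2 and 4 of BAT and 53.73 to 58.59 FPKM in the other auranofin libraries there, against 105.8, 39.49, 349.8 and 904.9 FPKM in the vehicle libraries of BAT. It was 1100 FPKM in auranofin library 4 and 1878 FPKM in vehicle library 4 of iWAT and at most 74.01 FPKM in the other libraries of that depot. Some counts below are also given without auranofin library 2 of iWAT and vehicle libraries 1 and 2 of eWAT, taken out together. Shares of all genes beside a count belong to the fit with all libraries. For fits with libraries left out those shares are not given. The labels do not say that libraries came from separate animals or which libraries share an animal, so a p-value here measures no more than how libraries vary. In bulk tissue, fewer cells of a type and less RNA per cell cannot be told apart.

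A single gene, Eps8l1, was called by the common test, which is 0.00940% of the genes tested. It was higher in auranofin-treated mice by 0.55 on the log2 scale (SE 0.0861, limma with Benjamini-Hochberg adjusted p = 0.00406). The call missed the threshold when any tissue was left out. In iWAT, eWAT and liver Eps8l1 met the level required for testing only through its auranofin libraries, as described below. Eps8l1 encodes a relative of EPS8. That family binds actin and links growth factor receptors to remodelling of the cell's actin skeleton. The gene lies on mouse chromosome 7 (mm10, 4460674 to 4480487, plus strand). The RefSeq window around its first start site (GRCm38.p6, chr7:4460447-4460746, plus strand, 250 bases before the start to 50 after it) is shown because Eps8l1 is the gene that the comparison turns on. Capitals mark the match to CCAAT, here on the opposite strand, a motif found in 37.4% of the 32851 RefSeq promoter windows.
Eps8l1: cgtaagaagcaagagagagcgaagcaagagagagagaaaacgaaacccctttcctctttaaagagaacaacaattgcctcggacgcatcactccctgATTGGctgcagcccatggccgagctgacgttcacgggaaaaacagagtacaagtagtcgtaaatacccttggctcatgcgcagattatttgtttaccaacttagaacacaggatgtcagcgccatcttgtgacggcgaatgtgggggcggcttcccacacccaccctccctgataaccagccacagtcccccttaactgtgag
Searched on both strands, the window held no other motif of the set: not the E-box CACGTG (in 7.15% of all windows), the D-box as TTATGTAA (0.938%) or as TTACGTAA (0.119%), the heat shock element GAANNTTC (7.86%), the antioxidant response element TGACNNNGC (12.4%), the cAMP response element TGACGTCA (1.79%), the metal response element TGCNCNC (51%) or the stress response element TGATGNAA (3.97%), which ATF4 binds. Of the other 2 RefSeq windows of Eps8l1, both held the metal response element and neither held another motif of the set. A match describes the letters only.

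In the inguinal depot Eps8l1 had 1.85, 0.58, 1.36 and 0.512 FPKM in iWAT of auranofin-treated mice, against 0.48, 0.273, 0.211 and 0.188 FPKM in iWAT of vehicle-treated mice. The levels were 0.758, 1.99, 1.06 and 1.27 FPKM in eWAT of auranofin-treated mice, against 0.628, 0.43, 0.392 and 0.302 FPKM in eWAT of vehicle-treated mice. All auranofin libraries of both white depots lay above all of their vehicle libraries. Liver and brown fat gave the same order. Eps8l1 had 1.24, 0.664, 1.1 and 0.525 FPKM in liver of auranofin-treated mice, against 0.512, 0.478, 0.31 and 0.348 FPKM in liver of vehicle-treated mice. The values were 1.7, 1.16, 1.96 and 0.985 FPKM in BAT of auranofin-treated mice, against 0.919, 0.68, 0.739 and 0.377 FPKM in BAT of vehicle-treated mice. Groups therefore did not overlap in any tissue, and Eps8l1 was the single gene of 10638 (0.00940%) for which this held. The margin was narrow in iWAT, liver and BAT, where the lowest auranofin library and the highest vehicle library were almost level. In iWAT, eWAT and liver the vehicle mean of Eps8l1 lay under the 0.5 FPKM that testing required. Eps8l1 was therefore tested only through its higher auranofin libraries, and its place among the 10638 genes depends on them.

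Within tissues the log2 change of Eps8l1 was 0.64 ± 0.21 (SE), 0.64 ± 0.16, 0.40 ± 0.13 and 0.54 ± 0.15 in iWAT, eWAT, liver and BAT. Each of these rests on 4 libraries a group, and none passed alone, with limma adjusted p-values of 0.17, 0.44, 0.77 and 0.26. No difference between the tissues was detected (limma interaction adjusted p = 0.815). Leaving out 1 library of a tissue at a time gave changes of 0.472 to 0.776, 0.494 to 0.75, 0.309 to 0.493 and 0.441 to 0.632 in iWAT, eWAT, liver and BAT. The call was kept in all 32 fits without 1 library (limma adjusted p = 0.00166 to 0.0111), but missed the threshold when a whole tissue was left out (adjusted p = 0.0508 to 0.0747). It also missed it with the mean over the 4 tissues of each treatment and number (limma adjusted p = 0.0888) and with quantile normalisation after removal of the gene-length trend (0.0514). Eps8l1 was read from 40 to 255 reads in auranofin libraries and 22 to 91 in vehicle libraries, so it sits near the low end of what was tested. The library kit keeps no strand, and Gm15494, an antisense gene that overlaps Eps8l1, cannot be told apart from it in the shared stretch; Gm15494 itself averaged 0.0643 FPKM. Its neighbours Rdh13 and Ppp1r12c had common log2 changes of 0.07 and 0.09 (limma adjusted p = 0.511 and 0.532).

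**Figure D1:**
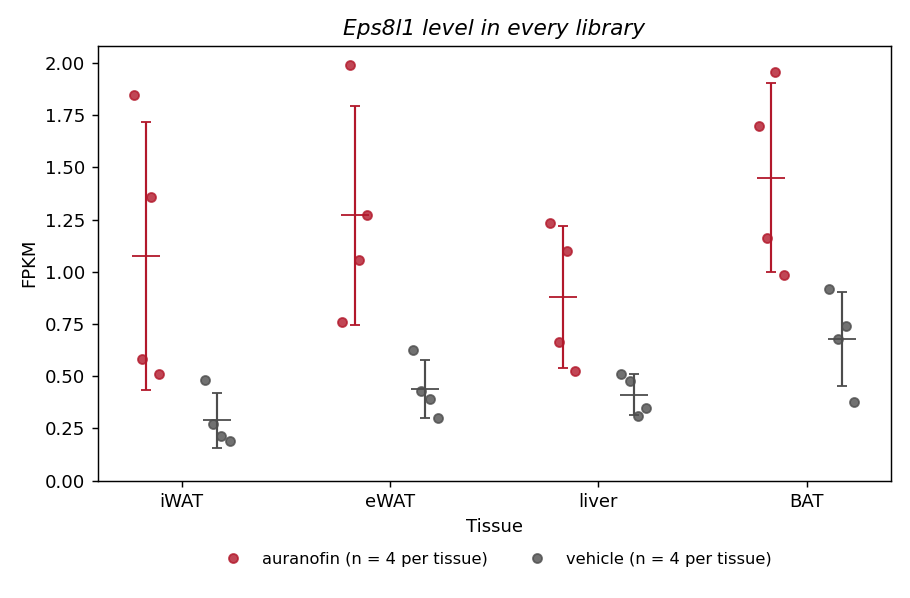
Eps8l1 level (FPKM, vertical axis) in each of the 32 libraries by tissue, auranofin left and vehicle right; dots are libraries, and the cross and bars give the mean ± SD of 4 libraries. Every auranofin dot lies above every vehicle dot of its tissue, with means of 1.07, 1.27, 0.881 and 1.45 FPKM in iWAT, eWAT, liver and BAT of auranofin-treated mice and 0.288, 0.438, 0.412 and 0.679 FPKM in those of vehicle-treated mice.

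No other gene passed. The next smallest limma adjusted p was 0.0863, and 106 genes lay under 0.1, 47 higher and 59 lower. Of these 106 genes, 98 had 1 sign in every tissue, a trait that selection by the common change of the same values favours. Liver had the smallest of the 4 changes for 63 genes, and the median size of their log2 change was 0.331, 0.398, 0.194 and 0.312 in iWAT, eWAT, liver and BAT. The calls depended on single libraries. Without auranofin library 2 of iWAT 115 genes were called, 86 of them among the 106, and without auranofin library 1 of eWAT 107 were called, 73 of them among the 106. The count was 3 without auranofin library 2 of BAT, and 2 without auranofin library 1 of BAT, vehicle library 4 of eWAT or auranofin library 2 of liver. Without the 3 libraries taken out together 11 genes were called: Lpgat1, Cep85, Nus1, Ttyh2, Gmfb, Gda, Tspyl2, Nek6, Ddb2, Eps8l1 and Zfp689, which are named after their values were seen.

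Movement in the same direction in every tissue was mostly small. Over all genes tested, 832 (7.82%) had a positive log2 change in all 4 tissues and 839 (7.89%) a negative one. Every gene has a sign in each tissue, so unrelated signs also agree in part of the genes. These shares were not set against that level and do not measure a shared response. A size of at least 0.2 in every tissue was kept by 37 genes above and 13 below zero, at least 0.3 by 10 and 3, and at least 0.5 by 1 and 1. The last 2 were Mir1943 (common change 0.91, limma adjusted p = 0.137), a microRNA gene, and Ubd. Mir1943 was read from 0 to 8 reads per library, with 0 reads in every vehicle library of iWAT. At an unadjusted p under 0.05 in limma, 877 genes (8.24%) were higher and 1005 (9.45%) lower. Across the 10638 genes the log2 changes of eWAT and BAT had a correlation of 0.383, those of iWAT and liver 0.152, eWAT and liver -0.0428, liver and BAT 0.0249, iWAT and BAT -0.127 and iWAT and eWAT -0.165. These describe genes that share libraries and are not independent.

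Genes nearest to a common increase were taken by p. They had to be protein coding, with 1 sign and a mean of at least 1 FPKM in every tissue. Nrbp2, a pseudokinase gene, had a common log2 change of 0.60 (SE 0.144), with 0.83, 0.93, 0.40 and 0.26 in iWAT, eWAT, liver and BAT. All 16 of its auranofin libraries lay above the vehicle mean of their tissue. The same held for Atoh8, which encodes a basic helix-loop-helix transcription factor and had a common log2 change of 0.37. Selection by p and sign of the same values favours such counts, and their share of all genes is not given. Gstt2, a glutathione S-transferase gene, followed at 0.57, Ddb2 at 0.39, Ripply3, a transcriptional corepressor gene, at 0.37, Sec31b, a component of the COPII vesicle coat, at 0.37, Ap4m1, a subunit of the AP-4 sorting complex, at 0.26 and Zfp653, a zinc finger gene, at 0.22. None of these 8 passed the threshold (limma adjusted p = 0.0933 in each).

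Ddb2, which encodes the damage-recognising partner of DDB1 in nucleotide excision repair of ultraviolet lesions, had 2.51, 0.911, 1.99 and 2.14 FPKM in iWAT of auranofin-treated mice, against 0.51, 0.834, 0.89 and 0.847 FPKM in iWAT of vehicle-treated mice. All iWAT vehicle libraries lay under the 1 FPKM that the rule required as a mean, so Ddb2 entered through the auranofin group there. Its levels were 2.08, 2.43, 2.46 and 2.64 FPKM in liver of auranofin-treated mice, against 1.49, 1.79, 1.25 and 1.97 FPKM in liver of vehicle-treated mice. For brown fat they were 2.06, 2.25, 2.37 and 2.49 FPKM in BAT of auranofin-treated mice, against 1.56, 1.73, 1.26 and 2.05 FPKM in BAT of vehicle-treated mice. In these 3 tissues every auranofin library lay above every vehicle library. The margin was very narrow in iWAT (0.911 against 0.89 FPKM) and BAT (2.06 against 2.05 FPKM). The visceral depot had 0.816, 2.29, 2.08 and 1.77 FPKM in eWAT of auranofin-treated mice, against 1.6, 0.808, 1.4 and 1.59 FPKM in eWAT of vehicle-treated mice, and there the groups overlapped, auranofin library 1 being near the lowest vehicle library. The eWAT change of Ddb2 was 0.201, and it was 0.0801 without vehicle library 2 and 0.386 without auranofin library 1. The common log2 change of Ddb2 was 0.39 (SE 0.0848, limma adjusted p = 0.0933). Of the 10638 genes tested, Ddb2 and Grk3, a receptor kinase gene, were the only 2 without overlap in exactly 3 tissues in 1 direction. Another 101 had no overlap in 2 tissues in 1 direction. Ddb2 and Grk3 were noticed after their values were seen. Grk3 had a common log2 change of 0.18, and its change in eWAT was -0.18.

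The genes nearest to a common decrease had different functions. Gda, guanine deaminase of purine breakdown, had 18.5, 26.5, 21.4 and 24.7 FPKM in iWAT of auranofin-treated mice, against 26.4, 31.2, 26.7 and 27.6 FPKM in iWAT of vehicle-treated mice. Visceral fat gave 16.2, 15.1, 15.2 and 13.9 FPKM in eWAT of auranofin-treated mice, against 24.6, 31.7, 21.3 and 14.6 FPKM in eWAT of vehicle-treated mice. In both depots the groups overlapped through a single library, auranofin library 2 in iWAT and vehicle library 4 in eWAT. Gda had 5.1, 4.95, 6.08 and 4.77 FPKM in liver of auranofin-treated mice, against 6.76, 7.04, 6.18 and 5.44 FPKM in liver of vehicle-treated mice. Brown fat had 4.21, 6.11, 5.55 and 5.09 FPKM in BAT of auranofin-treated mice, against 6.6, 6.61, 8.19 and 10.5 FPKM in BAT of vehicle-treated mice. Liver overlapped through auranofin library 3, BAT did not overlap, and none of the 16 auranofin libraries reached the vehicle mean of its tissue. Selection of Gda by p and sign of the same values favours this count. The common log2 change of Gda was -0.39 (SE 0.0794, limma adjusted p = 0.0863).

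Rras2, a Ras-family small GTPase gene, had the same count of 0 of 16 auranofin libraries above the vehicle mean, which selection also favours. Its values were 10.7, 13.2, 9.83 and 11.6 FPKM in iWAT of auranofin-treated mice, against 16.2, 13.6, 14.2 and 13.9 FPKM in iWAT of vehicle-treated mice. In iWAT the groups did not overlap. Rras2 had 10.2, 8.46, 11.3 and 9.61 FPKM in eWAT of auranofin-treated mice, against 13.8, 14.7, 10.0 and 10.2 FPKM in eWAT of vehicle-treated mice. The liver values were 4.84, 5.97, 5.38 and 5.2 FPKM in liver of auranofin-treated mice, against 6.19, 6.54, 6.07 and 5.53 FPKM in liver of vehicle-treated mice. For brown fat, Rras2 gave 6.82, 8.88, 7.93 and 8.81 FPKM in BAT of auranofin-treated mice, against 10.1, 8.41, 8.72 and 11.6 FPKM in BAT of vehicle-treated mice. The groups overlapped in eWAT, liver and BAT, each through 1 or more libraries near the other group's edge. The common log2 change was -0.25 (SE 0.0579, limma adjusted p = 0.0933).

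Ubd had the largest common decrease of the genes taken by this rule, at -0.94 (SE 0.214, limma adjusted p = 0.0933). It encodes FAT10, a ubiquitin-like modifier that inflammatory cytokines turn on. Its levels were 90.5, 254, 87.8 and 80.4 FPKM in iWAT of auranofin-treated mice, against 158, 271, 140.0 and 202 FPKM in iWAT of vehicle-treated mice. They were 172, 29.4, 73.6 and 94.2 FPKM in eWAT of auranofin-treated mice, against 148, 203, 143 and 144 FPKM in eWAT of vehicle-treated mice. Auranofin library 2 of iWAT and auranofin library 1 of eWAT lay among the vehicle libraries, and the others lay below them. Ubd was low elsewhere, with 0.283, 1.72, 0.712 and 0.0852 FPKM in liver of auranofin-treated mice, against 0.648, 5.07, 1.75 and 0.982 FPKM in liver of vehicle-treated mice. Its liver mean in auranofin-treated mice lay under the 1 FPKM that the rule required. Ubd therefore entered through the vehicle group, chiefly vehicle library 2 at 5.07 FPKM. Brown fat had 4.03, 4.14, 1.62 and 1 FPKM in BAT of auranofin-treated mice, against 6.52, 9.9, 7.86 and 4.81 FPKM in BAT of vehicle-treated mice. The groups overlapped in liver and did not in BAT. Without vehicle library 2 the liver change was -0.381, against -0.768 with it, and without auranofin library 2 the eWAT change was -0.566, against -1.02 with it; the iWAT change was -1.11 without auranofin library 2, against -0.718 with it.

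The lower set held 5 other genes, also taken on the condition of 1 sign in every tissue. They were Hilpda (common log2 change -0.79), a lipid droplet protein that inhibits fat breakdown, Bcar3 (-0.42), an adaptor of integrin signalling, Nek6 (-0.39), a mitotic kinase, Nus1 (-0.29), a subunit of the enzyme that makes dolichol, and Gmfb (-0.26), which debranches actin at the Arp2/3 complex. Hilpda ranged widely, from -1.49 in iWAT and -1.03 in BAT to -0.13 in liver. Nek6 had a limma adjusted p of 0.0863 and the others 0.0933. Adrb3, the adipocyte beta-3 adrenergic receptor, picked out after its values were seen, had a common log2 change of 0.86 (limma adjusted p = 0.0933), with 2.09 in eWAT and 0.20 in BAT.

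**Figure D2:**
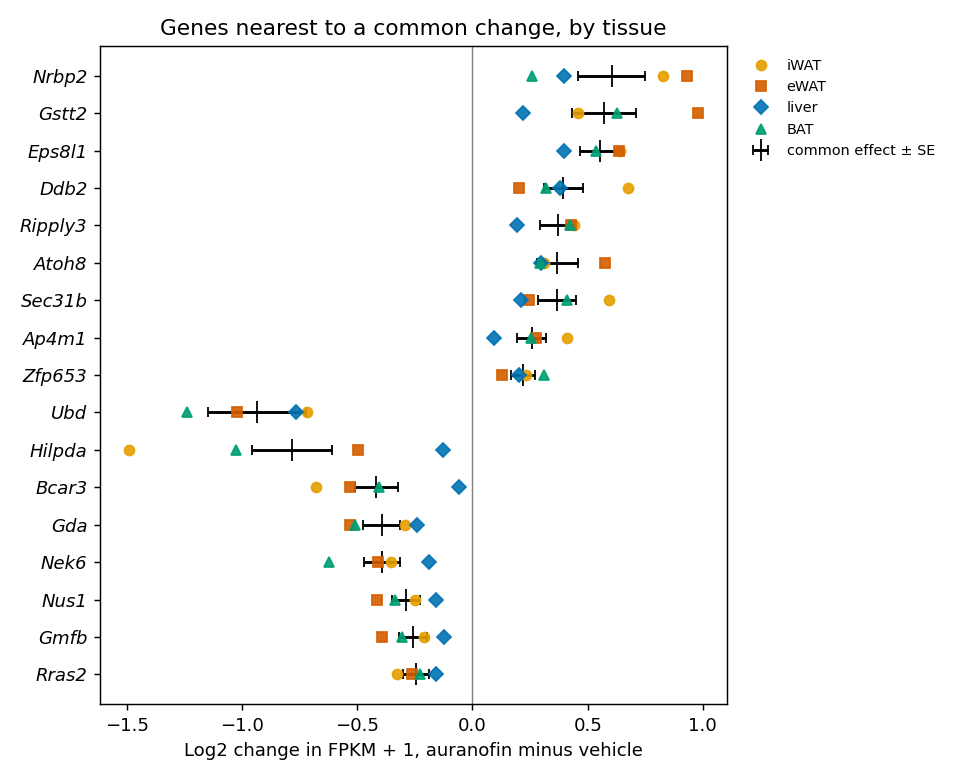
Log2 change in FPKM + 1, auranofin minus vehicle (horizontal axis), of Eps8l1 and of the 8 genes nearest to a common change in each direction; symbols are tissues and the black bar is the common change ± SE over 32 libraries. The 8 genes of each direction were chosen to keep 1 side of zero in all 4 tissues. Liver usually lies closest to zero, as for Hilpda at -0.13.

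No gene of the drug's known target system, or of the responses it typically sets off, passed the test. Txnrd1, the cytosolic thioredoxin reductase, had a common log2 change of -0.12 (limma adjusted p = 0.265), with 0.05, -0.25, -0.14 and -0.13 in iWAT, eWAT, liver and BAT. Its mean level was 9.66 ± 0.75, 10.4 ± 0.714, 27.4 ± 3.74 and 13.4 ± 0.857 FPKM in iWAT, eWAT, liver and BAT of auranofin-treated mice, against 9.27 ± 0.42, 12.7 ± 2.33, 30.2 ± 3.08 and 14.8 ± 1.38 FPKM in the same tissues of vehicle-treated mice (SD, n = 4 each). The common log2 change was -0.06 for Txnrd2, the mitochondrial reductase, -0.14 for Txn1, thioredoxin itself, 0.03 for the NRF2 target Nqo1 and -0.03 for Mt1. Of 34 genes of the thioredoxin system and selenoproteins, 1 was higher and 5 lower at an unadjusted p under 0.05 in limma, against 8.24% and 9.45% of all genes. The higher one was Txnip (0.37), the thioredoxin-binding arrestin, and Srxn1 (-0.32), sulfiredoxin, was among the lower. The higher count was 2 without vehicle library 1 or 4 of iWAT. The lower count was 3 without auranofin library 1 of iWAT, auranofin library 2 of eWAT or vehicle library 1 of eWAT, and 9 without the 3 libraries taken out together. Of 30 NRF2 targets 1 was higher and 5 lower, and without those 3 libraries 0 were higher and 6 lower. Mt2 and Lep, the leptin gene, were too low in liver to be tested in common.

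Hmox1, heme oxygenase of heme breakdown and a classical NRF2 target, lay lower in the fat depots. It had 22.6, 43.1, 24.7 and 26.6 FPKM in iWAT of auranofin-treated mice, against 33.9, 54.9, 22.6 and 81.8 FPKM in iWAT of vehicle-treated mice. Visceral fat gave 41.9, 25.3, 40.7 and 40.8 FPKM in eWAT of auranofin-treated mice, against 132, 70.5, 48.1 and 42.4 FPKM in eWAT of vehicle-treated mice. In eWAT all auranofin libraries lay below all vehicle libraries, and in iWAT the groups overlapped, the 2 highest values being vehicle libraries 4 and 2. Hmox1 had 15, 16.4, 10.3 and 7.1 FPKM in BAT of auranofin-treated mice, against 24.8, 28.3, 63.2 and 29 FPKM in BAT of vehicle-treated mice, again without overlap. The liver values were 11.9, 8.74, 15.8 and 11.1 FPKM in liver of auranofin-treated mice, against 11, 12.5, 14.9 and 9.92 FPKM in liver of vehicle-treated mice, and there the groups were mixed. The common log2 change was -0.73 (SE 0.19, limma adjusted p = 0.0933), made of -0.59, -0.84, -0.04 and -1.46 in iWAT, eWAT, liver and BAT. The iWAT change was -0.292 without vehicle library 4 and -0.895 without vehicle library 3, and the eWAT change was -0.511 without vehicle library 1. In liver the sign turned when single libraries were left out, with changes of -0.174 to 0.09. Macrophages express Hmox1 strongly. The summed level of 22 macrophage markers was 577 to 849, 1260 to 3100, 264 to 412 and 140 to 286 FPKM in iWAT, eWAT, liver and BAT of auranofin-treated mice, against 617 to 973, 2520 to 5780, 221 to 335 and 270 to 492 FPKM in those tissues of vehicle-treated mice. The part of the macrophage markers in the Hmox1 values was not tested.

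The circadian clock was the functional list with most members above zero in every tissue. In this clock ARNTL (BMAL1) and CLOCK bind E-boxes and drive the Per, Cry and Nr1d genes and the output factors Dbp and Tef. PER and CRY proteins then shut ARNTL and CLOCK down, NR1D1 and NR1D2 repress Arntl, and DBP and TEF bind D-boxes, where NFIL3 competes with them. Of 25 clock genes tested, 9 had a positive log2 change in all 4 tissues and 5 a negative one, against 7.82% and 7.89% of all genes. None was called. At an unadjusted p under 0.05 in limma, 9 were higher and 3 lower (Arntl, Wee1 and Nfil3), and the median over the 25 was 0.0648, against -0.00716 over all genes. The split into the 2 arms of the loop was noticed after the values were seen.

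The repressors and outputs that ARNTL and CLOCK drive made up most of the higher genes. The common log2 change was 0.78 for Dbp (SE 0.215), 0.49 for Tef (SE 0.126), 0.43 for Per3 (SE 0.121), 0.52 for Nr1d1 (SE 0.151), 0.39 for Per2, 0.29 for Per1, 0.29 for Nr1d2, 0.24 for Cry2 and 0.15 for Csnk1e, the kinase that marks PER proteins for breakdown. The smallest limma adjusted p-values were 0.0933 for Tef and 0.0985 for Dbp. These values, the SEs and the clock counts treat libraries of different tissues as independent. Yet the same auranofin library numbers had the highest Dbp and lowest Arntl among auranofin libraries of iWAT, liver and BAT, though not of eWAT. The correlation of -0.0572 between same-numbered libraries was estimated over all genes and cannot settle this for clock genes. Their evidence may therefore be overstated. Per3 was even across tissues, with 0.44, 0.47, 0.32 and 0.48 in iWAT, eWAT, liver and BAT, and so was Per1, with 0.29, 0.27, 0.33 and 0.25. The activators lay on the other side, with -0.27 for Arntl (SE 0.0839, limma adjusted p = 0.141) and -0.11 for Clock. With them were Nfil3 at -0.47, Cry1 at -0.14 and Rora, an activator of Arntl, at -0.11. Cry1 and Cry2 thus lay on different sides of zero.

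Among RefSeq windows of the clock genes with 1 sign, 3 of 13 windows of the higher genes (Per1, and both of Tef) and 1 of 8 of the lower genes (Cry1) held the E-box CACGTG, which is in 7.15% of all windows. The D-box TTATGTAA was in 1 window, that of Per3, against 0.938% of all windows, and TTACGTAA in none, against 0.119%. They are shown because these are the sites through which the loop described above acts. Capitals mark the E-box in Tef (GRCm38.p6, chr15:81811164-81811463, plus strand), Per1 (chr11:69098699-69098998, plus strand) and Cry1 (chr10:85185005-85185304, minus strand), and the 2 D-box matches in Per3 (chr4:151044616-151044915, minus strand), each written 5′ to 3′ on the gene's strand. Other motifs in these windows are left in lower case.
Tef: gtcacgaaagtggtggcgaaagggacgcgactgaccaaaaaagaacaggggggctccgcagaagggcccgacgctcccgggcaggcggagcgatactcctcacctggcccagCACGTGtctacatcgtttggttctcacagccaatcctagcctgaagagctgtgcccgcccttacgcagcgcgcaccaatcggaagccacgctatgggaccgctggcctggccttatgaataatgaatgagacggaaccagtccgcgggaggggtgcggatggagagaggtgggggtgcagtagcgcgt
Per1: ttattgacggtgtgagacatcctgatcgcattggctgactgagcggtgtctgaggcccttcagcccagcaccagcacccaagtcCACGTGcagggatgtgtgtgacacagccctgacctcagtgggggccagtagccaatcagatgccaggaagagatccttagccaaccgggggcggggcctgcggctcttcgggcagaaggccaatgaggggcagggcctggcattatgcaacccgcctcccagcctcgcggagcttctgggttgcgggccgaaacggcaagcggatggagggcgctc
Per3: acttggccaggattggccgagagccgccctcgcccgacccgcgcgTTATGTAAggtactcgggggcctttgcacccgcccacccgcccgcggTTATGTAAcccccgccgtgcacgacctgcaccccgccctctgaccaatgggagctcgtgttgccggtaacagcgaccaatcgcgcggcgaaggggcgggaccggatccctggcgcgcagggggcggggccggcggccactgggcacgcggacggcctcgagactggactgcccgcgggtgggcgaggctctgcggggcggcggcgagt
Cry1: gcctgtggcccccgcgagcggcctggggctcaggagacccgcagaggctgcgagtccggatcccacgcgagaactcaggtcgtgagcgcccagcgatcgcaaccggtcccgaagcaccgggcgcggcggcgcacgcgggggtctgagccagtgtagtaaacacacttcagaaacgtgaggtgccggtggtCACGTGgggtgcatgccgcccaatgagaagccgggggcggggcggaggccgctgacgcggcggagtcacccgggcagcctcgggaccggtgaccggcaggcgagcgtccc
Cry1 carries an E-box as Per1 and Tef do, while its common log2 change was below zero.

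Dbp had 4.28, 2.94, 7.9 and 6.75 FPKM in iWAT of auranofin-treated mice, against 2.73, 2.32, 3.23 and 5.57 FPKM in iWAT of vehicle-treated mice. It had 3.15, 7.64, 6.28 and 7.14 FPKM in eWAT of auranofin-treated mice, against 1.1, 1.16, 2.86 and 3.35 FPKM in eWAT of vehicle-treated mice. In iWAT the 2 highest values were auranofin libraries 3 and 4, and in eWAT auranofin libraries 2, 3 and 4 lay above all vehicle libraries. The liver gave 5.95, 4.23, 33.1 and 9.06 FPKM in liver of auranofin-treated mice, against 3.88, 6.46, 6.2 and 12.6 FPKM in liver of vehicle-treated mice. Dbp values were 2.11, 2.37, 6.32 and 7.74 FPKM in BAT of auranofin-treated mice, against 1.58, 1.12, 1.44 and 2.42 FPKM in BAT of vehicle-treated mice. Auranofin libraries 3 and 4 were the highest in BAT as well, and in liver auranofin library 3 stood far above all others. The log2 change of Dbp was 0.51, 1.2, 0.45 and 0.97 in iWAT, eWAT, liver and BAT. Without auranofin library 3 the liver change was -0.112, so its sign in liver rests on 1 library.

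Tef had 10.4, 6.27, 13.7 and 13.1 FPKM in iWAT of auranofin-treated mice, against 7.51, 7.17, 9.09 and 9.66 FPKM in iWAT of vehicle-treated mice. The visceral depot had 6.84, 12.2, 9.67 and 11.4 FPKM in eWAT of auranofin-treated mice, against 3.72, 3.65, 8.25 and 7.95 FPKM in eWAT of vehicle-treated mice. In eWAT 3 of 4 auranofin libraries lay above all vehicle libraries, and in iWAT auranofin library 2 was the lowest of all 8. Tef levels were 21.8, 16.9, 34.3 and 25.2 FPKM in liver of auranofin-treated mice, against 14.8, 16.2, 20.9 and 20.7 FPKM in liver of vehicle-treated mice. In brown fat they were 11.1, 13.5, 19.6 and 24.7 FPKM in BAT of auranofin-treated mice, against 10.6, 9.42, 10.7 and 13.2 FPKM in BAT of vehicle-treated mice. In liver and BAT 3 of 4 auranofin libraries again lay above all vehicle libraries, with the remaining one inside the vehicle range. The log2 change of Tef was 0.30, 0.73, 0.39 and 0.55 in iWAT, eWAT, liver and BAT, and stayed positive in every fit without 1 library. The iWAT change was 0.178 without auranofin library 3 and 0.517 without auranofin library 2, the liver change was 0.216 without auranofin library 3, and the BAT change was 0.369 without auranofin library 4.

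Arntl ran the other way, with 2.17, 2.62, 1.81 and 1.7 FPKM in iWAT of auranofin-treated mice, against 2.38, 2.65, 2.4 and 1.97 FPKM in iWAT of vehicle-treated mice. It had 2.18, 1.33, 1.59 and 1.75 FPKM in eWAT of auranofin-treated mice, against 3.42, 3.27, 2.25 and 2.46 FPKM in eWAT of vehicle-treated mice. The eWAT groups did not overlap, and the iWAT groups did. Arntl values were 2.92, 3.94, 2.05 and 1.82 FPKM in liver of auranofin-treated mice, against 2.85, 2.91, 2.66 and 3.2 FPKM in liver of vehicle-treated mice. They were 2.85, 3.8, 1.96 and 1.52 FPKM in BAT of auranofin-treated mice, against 2.83, 3.25, 3.94 and 3.26 FPKM in BAT of vehicle-treated mice. In iWAT, liver and BAT the 2 lowest values were auranofin libraries 3 and 4, the libraries in which Dbp was highest in iWAT, liver and BAT among auranofin-treated mice, and auranofin library 2 had the highest auranofin value. The log2 change of Arntl was -0.13, -0.50, -0.12 and -0.33 in iWAT, eWAT, liver and BAT. Without auranofin library 4 the Arntl change was -0.0695 in iWAT, -0.00244 in liver and -0.181 in BAT, and without auranofin library 2 it was -0.211, -0.272 and -0.491 in those tissues. Clock gene levels follow the hour of tissue collection, and that hour is not given in the sources used here; its part in these values was not tested. Counts over the clock list moved with single libraries. With 1 library left out 7 to 9 genes had a positive sign in all tissues and 2 to 6 a negative one, the lower count being 2 without auranofin library 3 of liver and 3 without auranofin library 4 or vehicle library 4 of liver. The count lower at an unadjusted p under 0.05 was 5 without auranofin library 2 of iWAT.

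**Figure D3:**
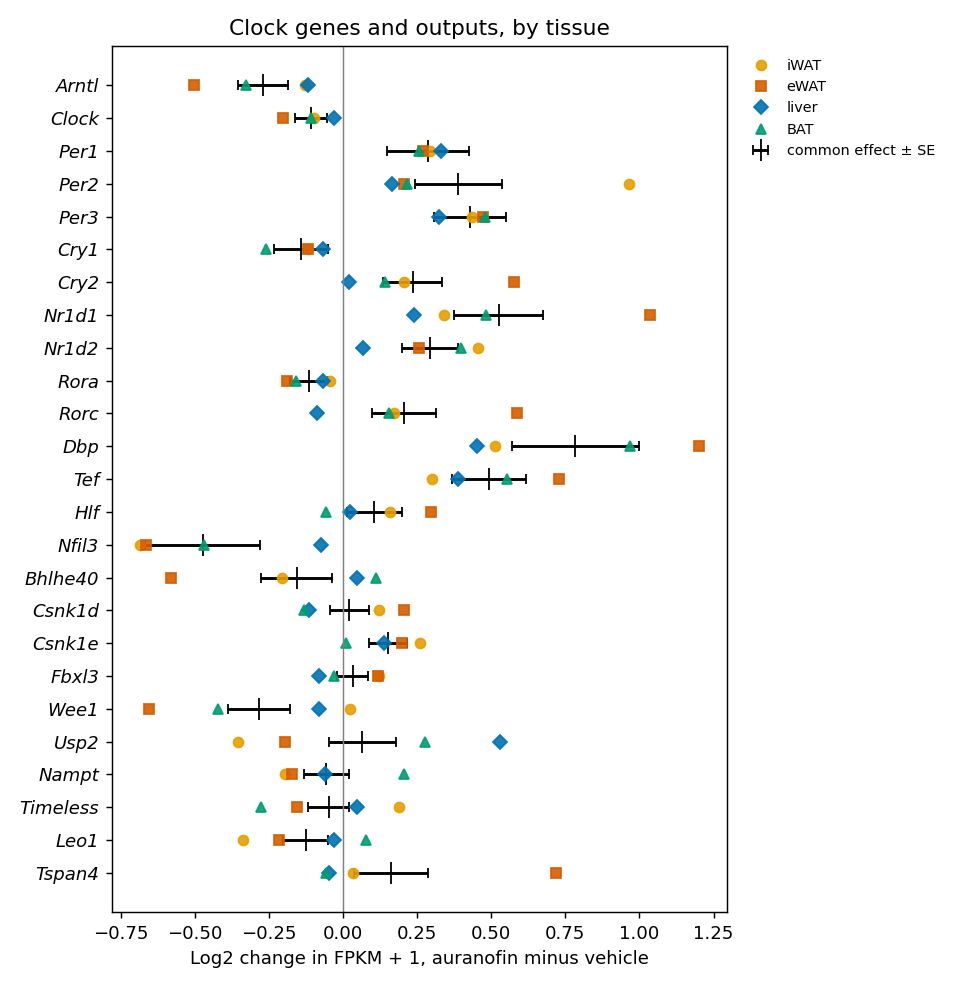
Log2 change in FPKM + 1, auranofin minus vehicle (horizontal axis), of the 25 clock genes tested, grouped from core activators at the top to outputs, kinases and other members below; symbols are tissues and the black bar is the common change ± SE over 32 libraries. Dbp at 0.78, Nr1d1 at 0.52 and Tef at 0.49 lie furthest to the right, and Nfil3 at -0.47, Wee1 at -0.28 and Arntl at -0.27 furthest to the left.

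Matrix genes were the list with most members lower by the unadjusted test. Of 29 collagen and matrix genes tested, 20 were lower and 1 higher at an unadjusted p under 0.05 in limma, against 9.45% and 8.24% of all genes, and none was called. The median was -0.267, against -0.00716 over all genes. The tissues differed within this count, with medians of -0.685 in BAT, -0.294 in eWAT, -0.0506 in liver and 0.00402 in iWAT, and 9 genes had a negative change in all 4. That number was 3 without vehicle library 2 of liver. Col3a1, a fibrillar collagen, had a common log2 change of -0.74 (limma adjusted p = 0.0933), with -0.18, -1.30, -0.15 and -1.32 in iWAT, eWAT, liver and BAT. Col1a1, the main fibrillar collagen, was at -0.56, and Col15a1, a basement membrane collagen, at -0.42. The summed level of 16 fibroblast and progenitor markers was 629 to 796, 711 to 936, 84.2 to 97.6 and 260 to 357 FPKM in iWAT, eWAT, liver and BAT of auranofin-treated mice, against 668 to 808, 921 to 1430, 83 to 106 and 349 to 426 FPKM in those tissues of vehicle-treated mice. That list shares collagens with the matrix list, and its part in the counts was not tested.

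Genes of protein folding and of lysosomes had medians below zero in all 4 tissues. Of 40 genes of the unfolded protein and integrated stress responses, 12 were lower at an unadjusted p under 0.05 in limma, at most 1 was higher with all libraries or without any 1 of them, and 13 had a negative change in every tissue, against 9.45%, 8.24% and 7.89% of all genes. The median was -0.155, -0.0907, -0.0951 and -0.0513 in iWAT, eWAT, liver and BAT. Nars, an asparagine tRNA ligase gene, was at -0.16. Hspa5, the chaperone BiP of the endoplasmic reticulum, was at -0.33 and Manf, a secreted folding factor, at -0.30. In eWAT, Hspa5 and Manf were highest in vehicle libraries 1 and 2. Without the 3 libraries taken out together 9 genes of this list were lower. Of 34 heat shock genes 11 were lower and 1 higher, and 14 had a negative change in every tissue; Hspa5 belongs to both lists. Their medians were -0.232, -0.201, -0.0588 and -0.0252 in iWAT, eWAT, liver and BAT. Dnajb4, a co-chaperone, was at -0.27 and Hspa4, of the HSP110 family, at -0.22. The 11 became 7 without auranofin library 1 of iWAT, vehicle library 2 of iWAT, auranofin library 4 of eWAT, vehicle library 2 of liver or auranofin library 4 of BAT. They became 6 without auranofin library 3 or vehicle library 2 of eWAT, and without the 3 libraries taken out together 6 were lower and 2 higher. The 14 became 9 without vehicle library 1 of liver and 7 without auranofin library 4 of BAT. None of these genes was called.

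Of 36 autophagy and lysosome genes, 13 were lower and 0 higher at an unadjusted p under 0.05 in limma, against 9.45% and 8.24% of all genes, with medians below zero in all 4 tissues. The leading members were Atp6v1a (-0.32, limma adjusted p = 0.0985), a subunit of the proton pump that acidifies lysosomes, Ctsl (-0.31), a lysosomal protease, and Atg5 (-0.26), which is needed to build autophagosomes. In eWAT, Atp6v1a was at 41.29 and 45.7 FPKM in vehicle libraries 1 and 2 and at 24.19 and 26.84 FPKM in vehicle libraries 3 and 4. Its auranofin libraries there had 14.94 to 23.02 FPKM. Ctsl was also highest in vehicle libraries 1 and 2 of eWAT, and its groups overlapped. Without the 3 libraries taken out together 12 genes of this list were lower. Cell division genes were low in these tissues, and 14 of 35 could be tested. All 14 had a common log2 change below zero and 10 were lower at an unadjusted p under 0.05, against 9.45% of all genes, led by Mcm5 (-0.27, limma adjusted p = 0.0933) and Mcm3 (-0.27), of the helicase that opens DNA for replication, and by Pcna (-0.27), the sliding clamp of DNA polymerases. Without the 3 libraries taken out together that count was 6. In eWAT, Pcna was highest in vehicle libraries 1 and 2. The cell division median in eWAT was -0.52. There the macrophage marker sum was 5783, 4678, 2525 and 2649 FPKM in vehicle libraries 1 to 4. Auranofin libraries 1 to 4 of eWAT had 2964, 1264, 2511 and 3099 FPKM, so the groups overlapped. The part of these markers in the cell division values was not tested. Of 37 interferon response genes 6 were lower and 0 higher, against 9.45% and 8.24% of all genes, with Ifit1 (-0.42) and Ifit3 (-0.32), antiviral proteins that bind foreign RNA, below zero in every tissue. Ccl2 (-0.93), the chemokine that draws monocytes, and Lcn2 (-0.50), an acute-phase lipocalin, were among the 4 of 25 inflammatory genes lower by the same test, against 9.45% of all genes.

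Markers of endothelial cells lay above zero. All 19 tested had a positive common log2 change, with a median of 0.214, and 8 were higher at an unadjusted p under 0.05 in limma, against 8.24% of all genes. The medians were 0.381, 0.24, 0.0526 and 0.0535 in iWAT, eWAT, liver and BAT. The summed level of 20 endothelial markers overlapped between groups in every tissue, with 336 to 606, 355 to 492, 104 to 136 and 403 to 481 FPKM in iWAT, eWAT, liver and BAT of auranofin-treated mice, against 364 to 462, 230 to 437, 113 to 133 and 385 to 526 FPKM in those of vehicle-treated mice. The count of 8 rested on many libraries. It was 4 without auranofin library 1 of iWAT, auranofin library 2 of eWAT or vehicle library 1 of eWAT. It was 5 without auranofin library 3 or 4 or vehicle library 1 or 2 of iWAT, auranofin library 4 of eWAT, vehicle library 2 of liver, or auranofin library 1 or vehicle library 4 of BAT, and 13 without auranofin library 2 of iWAT.

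For energy and translation genes the medians of iWAT and of BAT lay on different sides of zero. Of 76 nuclear genes of oxidative phosphorylation none had 1 sign in all tissues and none had an unadjusted p under 0.05 in limma. Their medians were -0.721, 0.393, -0.0403 and 0.239 in iWAT, eWAT, liver and BAT. The 63 cytosolic ribosomal protein genes were also lowest in iWAT, at -0.64, 0.18, 0.0597 and 0.151, with at most 1 lower at an unadjusted p under 0.05 in any fit without 1 library, and so were the 57 mitochondrial ribosome genes, at -0.511, 0.249, -0.0375 and 0.197. Of the 76, 2 were lower by that test without auranofin library 1 of eWAT and 6 without the 3 libraries taken out together, and 1 had a negative change in every tissue without auranofin library 1 or vehicle library 1 of eWAT. The 13 oxidative phosphorylation genes of the mitochondrial genome all had a common log2 change below zero, with a median of -0.195, and none had 1 sign in all tissues. Their medians were -0.693, -0.0411, -0.0283 and 0.246. In iWAT the summed adipocyte markers were 17430 to 18680 FPKM in auranofin libraries 1, 3 and 4, 27960 FPKM in auranofin library 2, and 23890 to 26750 FPKM in the vehicle libraries. In eWAT the same sum was 12000 to 20400 FPKM in auranofin-treated mice and 6540 to 13800 FPKM in vehicle-treated mice. Those sums moved with the energy lists, and their part in them was not tested. The library sizes behind FPKM split alike in iWAT. They were 22327421 to 23518961 in auranofin libraries 1, 3 and 4. They were 18848468 in auranofin library 2 and 17251599 to 20272361 in the vehicle libraries. The part of these sizes in the iWAT medians was not tested. Fatty acid oxidation genes gave 3 lower of 28, near the 9.45% of all genes, with Cpt1a (-0.27), which admits fatty acids to mitochondria, and Plin2 (-0.51), a lipid droplet coat protein, both at a limma adjusted p of 0.0933. The count was 5 without auranofin library 1 of eWAT, 6 without vehicle library 1 of eWAT and 14 without the 3 libraries taken out together. The share of all genes in those fits is not given, so these counts cannot be set against it.

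**Figure D4:**
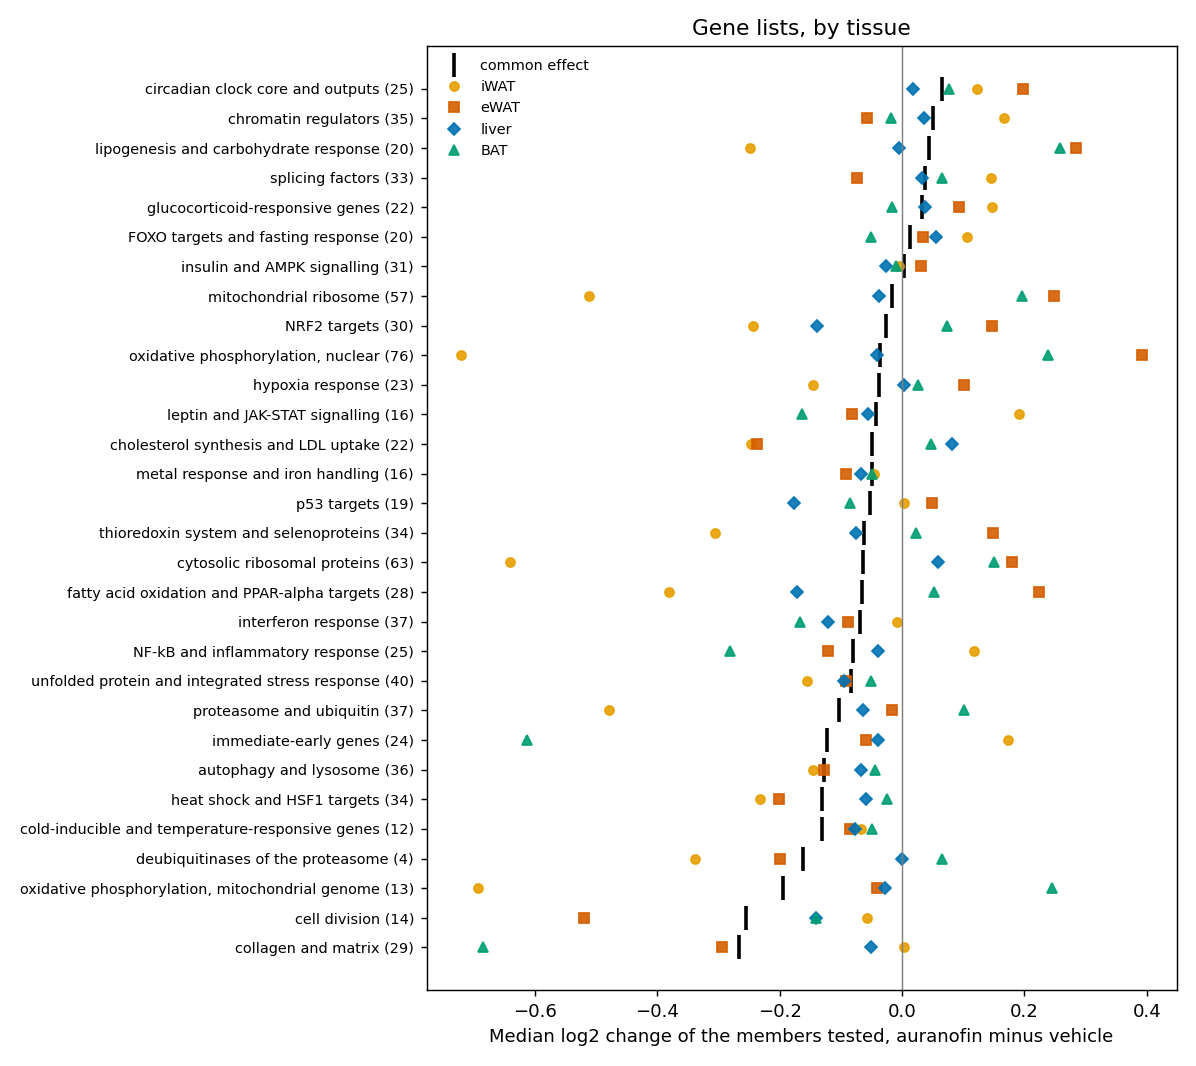
Median log2 change, auranofin minus vehicle (horizontal axis), of the tested members of each functional list, with their number in brackets; symbols are tissues and the black bar is the common change, sorted from highest to lowest. The collagen list at -0.267 lies lowest and the clock list at 0.0648 highest, and the oxidative phosphorylation list spreads from -0.721 in iWAT to 0.393 in eWAT.

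A test of whether the change differed between the tissues called 3 genes (0.0282% of those tested), while 2794 had an unadjusted p under 0.05 (limma). All 3 lay lower in BAT of auranofin-treated mice than of vehicle-treated mice. Thbs1, thrombospondin 1, a secreted matrix protein that activates TGF-beta, had 7.35, 33.7, 2.69 and 3.7 FPKM in BAT of auranofin-treated mice, against 56.6, 55.6, 47.9 and 47.1 FPKM in BAT of vehicle-treated mice. No BAT auranofin library reached the vehicle range, though auranofin library 2 lay far above the other 3. In the inguinal depot Thbs1 had 25, 23.7, 19.6 and 16.3 FPKM in iWAT of auranofin-treated mice, against 11.5, 10.8, 13.3 and 12.4 FPKM in iWAT of vehicle-treated mice, and there every auranofin library lay above every vehicle library. Elsewhere the groups overlapped, with 25.9, 33.9, 27.1 and 16.5 FPKM in eWAT of auranofin-treated mice, against 25.8, 17.4, 19 and 22.9 FPKM in eWAT of vehicle-treated mice. Liver was below 1 FPKM in all 8 libraries. The log2 change was 0.76, 0.24, -0.06 and -2.65 in iWAT, eWAT, liver and BAT, and the tissues differed (limma interaction adjusted p = 0.0118). Without auranofin library 2 the BAT change was -3.33. That library also had the highest skeletal muscle marker sum, 3530 FPKM, and the part of those markers in the BAT values was not tested.

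Csf1, the growth factor of macrophages, had 3.21, 8.25, 3.57 and 4.32 FPKM in BAT of auranofin-treated mice, against 14.1, 11.5, 17.9 and 14.5 FPKM in BAT of vehicle-treated mice. All auranofin libraries lay below all vehicle libraries. The subcutaneous depot gave 7.07, 5.34, 7.14 and 7.82 FPKM in iWAT of auranofin-treated mice, against 4.4, 4.67, 5.13 and 5.79 FPKM in iWAT of vehicle-treated mice. The iWAT groups overlapped through auranofin library 2. Its log2 change was 0.38, -0.06, -0.04 and -1.47 in iWAT, eWAT, liver and BAT (limma interaction adjusted p = 0.00599). Pvr, a nectin-like adhesion receptor, had 3.78, 4.61, 3.83 and 3.38 FPKM in BAT of auranofin-treated mice, against 7.17, 6.88, 7.57 and 7.13 FPKM in BAT of vehicle-treated mice. Those groups lay well apart, each tight. The log2 change of Pvr was 0.03, 0.15, -0.06 and -0.75 in iWAT, eWAT, liver and BAT (limma interaction adjusted p = 0.0164), and Pvr was among 3 genes that passed in BAT alone (limma adjusted p = 0.045). The other tissues had no gene that passed alone.

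The interaction calls depended on single libraries. Without auranofin library 2 of iWAT 2578 genes were called, without vehicle library 4 of eWAT 372, without auranofin library 2 of BAT 80, without vehicle library 3 of eWAT 40, without vehicle library 4 of BAT 6 and without auranofin library 1 of eWAT 5. A single gene was called without auranofin library 1, auranofin library 4 or vehicle library 1 of BAT. Over all alternatives that were run the interaction adjusted p ranged from 6.1e-06 to 0.237 for Csf1, 3.22e-09 to 0.231 for Thbs1 and 0.000106 to 0.549 for Pvr (limma). The highest value was reached without BAT for Csf1 and Pvr, and without iWAT for Thbs1.

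**Figure D5:**
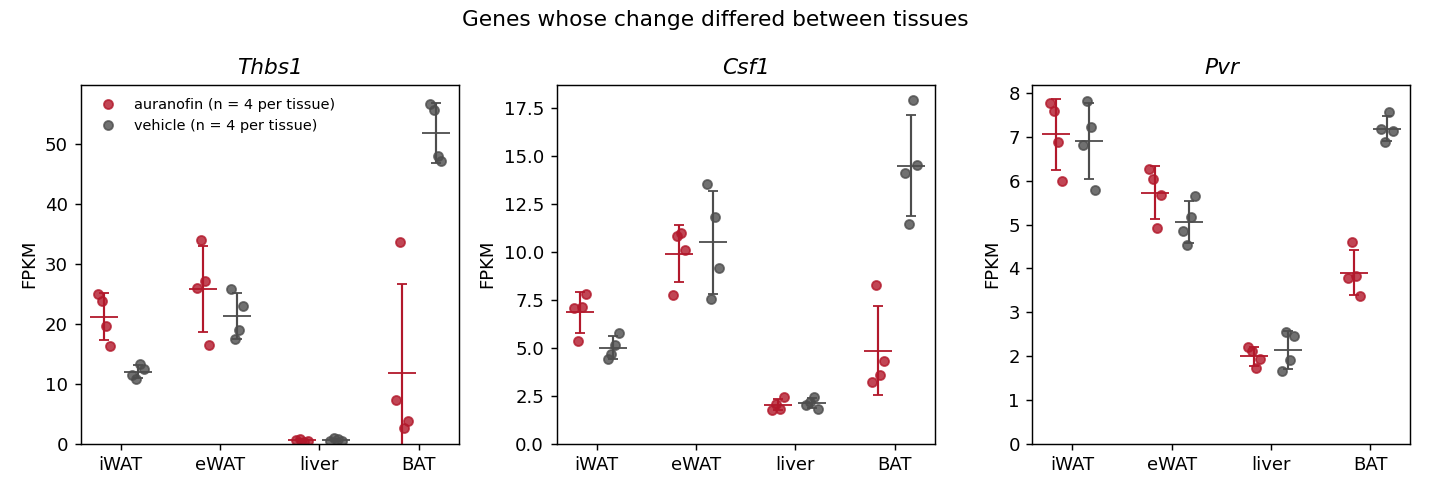
Thbs1, Csf1 and Pvr level (FPKM, vertical axis) in each of the 32 libraries by tissue, auranofin left and vehicle right; dots are libraries, and the cross and bars give the mean ± SD of 4 libraries, with the lower bar of Thbs1 in BAT of auranofin-treated mice ended at 0. The groups lie apart in BAT for all 3 genes, with auranofin below vehicle, and for Thbs1 in iWAT with auranofin above.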

How the data were processed

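Total RNA of 4 mouse tissues was sequenced from libraries made with a kit that keeps no strand, per the labels' protocols, so genes that overlap on opposite strands, and near-identical copies, are uncertain. The authors deposited FPKM for 54532 genes in 32 libraries. Named in the submitters' processing notes, with no role or order, are DESeq2 1.20.0, featureCounts 1.5.0-p3, STAR 2.6.1d, CASAVA and the build mm10. Of the deposited gene IDs, 54495 are in GENCODE M21 and 53585 of them have the same coordinates there. Multiplied by gene length, 100% of the FPKM values lay within 0.1 of whole reads, which gives 13606756 to 19205640 reads per library. The library sizes that the authors divided by were rescaled ones, between 10559760 and 24013795, so FPKM is relative to them. In iWAT these sizes were larger in auranofin libraries 1, 3 and 4 than in the other libraries of that depot.

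Every library was used, in the group its label gives. Genes with a mean of 0.5 FPKM or more in each tissue were fitted as log2(FPKM + 1) in limma 3.58.1 (R 4.3.3) with tissue as a block, 1 treatment term, an intensity trend and Benjamini-Hochberg adjustment over all 10638 genes; 0.05 was the threshold. Tissue differences were tested by a moderated F of the interaction, and each tissue was fitted alone. The fits were tried on simulated data. The settings and outcome are not given here, so this does not show how well changes of the sizes reported are detected.

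Members and lists were chosen with earlier results of these data known. Named genes are 8 target genes, the 8 protein-coding genes per direction with the smallest p, 1 sign and a mean of 1 FPKM in each tissue, genes whose groups overlap in no tissue, from each of 30 functional lists the 3 members of lowest p, and the 6 smallest interaction p-values; not all are described. The tested clock genes are plotted in full, and marker lists are given where they stand beside a result. Genes outside this rule, such as Adrb3, Mir1943, Grk3 and Thbs1, were named after their values were seen. Promoter windows are those of RefSeq (GRCm38.p6); 32 of 42 genes looked up had one.

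Alternatives were pseudocounts of 0.1 and 0.5, other filters, TPM, quantile and median-of-ratios scaling, sample weights, voom on the rebuilt reads, blocks, a gene-length correction (lowess span 0.3), and leaving out tissues or libraries. Python 3.11.15 and matplotlib 3.10.9 scanned the windows and drew the figures.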

Additional observations from a re-analysis of the deposited data

Results flagged for a closer look

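Of the 12 genes whose level is given in every library, 96 groups of 4 libraries were looked at, and in 7 a single library lay further from the others than Dixon's 95% limit allows. Chance alone gives such a library in about 1 group of 20. In iWAT, Ubd was at 254.1 FPKM in auranofin library 2 and at 80.44 to 90.47 FPKM in the other auranofin libraries. Ddb2 was at 0.5103 FPKM in vehicle library 1 of iWAT and at 0.8341 to 0.8898 FPKM in the other vehicle libraries. In eWAT, Hmox1 was at 25.3 FPKM in auranofin library 2 and at 40.69 to 41.94 FPKM in the others of its group, and Ubd was at 203.3 FPKM in vehicle library 2 and at 142.7 to 147.9 FPKM in the others. Dbp was at 33.13 FPKM in auranofin library 3 of liver and at 4.23 to 9.06 FPKM in the others. In BAT, Thbs1 was at 33.67 FPKM in auranofin library 2 and at 2.686 to 7.348 FPKM in the others, and Hmox1 was at 63.19 FPKM in vehicle library 3 and at 24.78 to 29.02 FPKM in the others.

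The change differed between tissues for 3 genes by the interaction in limma, with adjusted p-values of 0.00599 for Csf1, 0.0118 for Thbs1 and 0.0164 for Pvr.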

How the results depend on the processing

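Eps8l1 was called in 49 of 56 fits. These include the main fit read at an adjusted p under 0.1, an outcome fixed in advance, and the count is 48 without it. They also include the 32 fits without 1 library, which share nearly all their data. Eps8l1 was not tested at a mean of 1 FPKM, where 0 genes were called. It missed the threshold without iWAT (limma adjusted p = 0.0514), eWAT (0.0508), liver (0.0565) or BAT (0.0747), with the mean over the 4 tissues of each treatment and number (0.0888), which called Hmox1 in its place, and with quantile normalisation after removal of the gene-length trend (0.0514, 0 genes called), a setting added after the data were seen. The common test called 0 genes without iWAT, liver or BAT, 4 without eWAT, 2 with 1 variance per tissue, 2 with voom, 1845 with sample quality weights, 106 at an adjusted p under 0.1 and 11 without the 3 libraries that stood apart. With 1 library left out it called 1 to 115 genes and the interaction 1 to 2578. The interaction otherwise called 46 genes without a filter, 502 on the TPM scale, 4587 with sample weights, 7 with voom, 18 at an adjusted p under 0.1, 2470 without the 3 libraries, 0 without iWAT or BAT and 10 without eWAT. Genes with 1 sign in every tissue numbered 1902 higher and 1403 lower without a filter, 506 higher on the TPM scale, and, without 1 tissue, 1752 and 1716 (iWAT), 1453 and 1388 (eWAT), 1400 and 1370 (liver) and 1405 lower (BAT). With 1 library left out they numbered 684 to 1014 higher and 751 to 933 lower. For same-numbered auranofin and vehicle libraries of a tissue, correlations of their deviations ran from -0.173 to 0.303, with a median of 0.0571. Of 16, 4 correlated best with their own number, namely number 3 of iWAT and numbers 2, 3 and 4 of liver. Correlations over all genes cannot show whether such libraries shared more than a number. A replicate block on these numbers called 3 genes in common (Tubb2a, Ubd and Eps8l1) and 0 by the interaction. A block of same treatment and number across tissues, with an estimated correlation of -0.0572, called 139 genes, all 106 included. A negative correlation narrows the SE of the treatment effect, so these calls add no support to the 106. Correlations between 2 tissues of the same treatment and number ran from -0.438 to 0.418, and 14 of 48 were over 0.1. Small changes turned sign. Mt1 was at 0.01954 with quantile normalisation, 0.03407 with quantile normalisation after removal of the gene-length trend and 0.05407 without BAT. Csnk1d was at -0.009979 with sample weights, -0.02306 with 1 variance per tissue, -0.01286 without iWAT, -0.04061 without eWAT and -0.04247 without the 3 libraries. Usp2 was at -0.0437 with sample weights, -0.09056 without liver and -0.006124 without BAT. Nqo1 was at -0.01856 with 1 variance per tissue and -0.04443 without eWAT, Txnrd2 at 0.04808 without iWAT, Tspan4 at -0.02323 without eWAT and Timeless at 0.0278 without BAT. With 1 library left out, Mt1 ranged from -0.1431 to 0.1065, Nqo1 from -0.01345 to 0.06818 and Csnk1d from -0.007743 to 0.0495. The causes were not tested. With 4 libraries a group the median SE of a log2 change was 0.105 to 0.179 within a tissue and 0.0776 in common, so small shared changes could not be detected.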
